A study of Mus musculus with 12 samples.

Results

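Genes that the transcription factor p53 is known to control were followed in FO B cells stimulated through TLR9 and the type I interferon receptor. They were taken as a list of names, with no threshold on a value: Cdkn1a, Mdm2, Ccng1, Trp53inp1, Rps27l, Phlda3, Zmat3, Aen and Eda2r, together with Trp53, the gene of p53 itself. Of these 10 genes, 9 had a row in the count table of 22561 genes, and all 9 were among the 9431 genes that passed the filter on low counts. The expression of Eda2r, a receptor of the TNF receptor family, was not analysed here. FO B cells were sorted from spleens of 10-week-old C57BL6 mice, and RNA was sequenced in 3 samples of each of 4 groups. The groups were cells without stimulus (unstimulated) and cells given one of 3 stimuli for 12 h, namely IFNα, a type I interferon, CpG, an oligodeoxynucleotide that engages TLR9, or CpG + IFNα. The labels name no transgene or knockout in any group. The sources used here do not say whether the 3 samples of a group came from separate mice, so that p-values measure the spread between these samples, which may be technical. The list of barcodes names the samples WT1 to WT3, each number once in each group, and does not say what a number stands for. The sources also do not say whether unstimulated cells were cultured for 12 h, and an effect of culture cannot be told apart from that of a stimulus in comparisons with them.

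p53 is a transcription factor that is held at a low level by the ubiquitin ligase MDM2 and accumulates after DNA damage and other stresses. It then activates genes that arrest the cell cycle, repair DNA or start apoptosis, and also Mdm2, which closes a negative feedback loop. Cdkn1a encodes p21, an inhibitor of cyclin-dependent kinases, and is also controlled by other factors, among them signals of growth and differentiation. In germinal center B cells, BCL6 is known to restrain this response.

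Libraries were made by BRB-seq, which counts the 3′ ends of transcripts by unique molecular identifiers (UMIs), so that a count is a molecule and does not grow with transcript length. Totals were between 922450 and 2923865 counts per sample, lowest in the unstimulated group (at most 1103064) and highest in the group with CpG + IFNα (at least 1884673). Levels are given as CPM, which are counts relative to the library total, scaled by edgeR's TMM factors. In bulk RNA, fewer cells of a type and less RNA per cell cannot be told apart. Of 8 B cell markers, all were detected in each group, and their summed level was 8040 to 9230 CPM in unstimulated cells and 1210 to 1320 CPM with CpG + IFNα. Of 7 T cell markers, 5 had a row, their sum stayed at or below 3.64 CPM, and Cd3g and Cd8a were at 0 in every sample. Of 8 myeloid markers, 7 had a row, and their sum was 13.6 to 36.4 CPM in unstimulated cells and at most 17.6 CPM elsewhere. The sum of 5 plasma cell markers, 4 of them with a row, was 119 to 145 CPM in unstimulated cells and 45.9 to 73.5 CPM with CpG + IFNα. The sum of 5 plasmacytoid dendritic cell markers, 4 of them with a row, was 1.82 to 7.49 CPM in unstimulated cells and 20 to 22.1 CPM with CpG + IFNα. Of these 4, only Cox6a2 was higher there (mean 0.357 and 18.4 CPM), Ccr9 had means of 4.22 and 2.92 CPM, and Siglech and Klk1 were at 0 throughout. The sum of 6 erythroid markers was 57.4 to 345 CPM in unstimulated cells, 15.3 to 336 CPM with IFNα and at most 72 CPM in both groups with CpG. Each of 4 globin genes was highest in replicate 1 and lowest in replicate 3 of every group. The share of counts from mitochondrial genes was 6.06 to 7.7% in unstimulated cells and 2.99 to 3.52% with CpG + IFNα. The part of these differences in the results that follow was not tested.

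Of the 9 genes tested, 7 were up-regulated by CpG, among them Trp53 itself, and Cdkn1a responded to each stimulus. A longer list of other p53 targets, of which 29 were tested, did not move in a single direction against unstimulated cells. Genes were compared by edgeR's quasi-likelihood test with Benjamini-Hochberg adjustment over 9431 genes, and a gene was called differentially expressed (DEG) when its adjusted p was under 0.1 and its level changed more than 2-fold, a log2 fold change beyond 1 or -1. In CpG against unstimulated cells, 7 of the 9 genes were up-regulated DEGs and 1 was a down-regulated DEG, where 20.1% of all genes tested were up-regulated and 25.5% down-regulated. Their median log2 fold change was 1.72, beside -0.03 over all genes tested. In CpG + IFNα against unstimulated cells the counts were again 7 and 1, with 20.3% and 25.6% of all genes, and the median was 1.74 beside -0.01. In IFNα against unstimulated cells 2 genes were up-regulated DEGs and 0 were down-regulated by edgeR and by DESeq2, with 4.56% and 4.07% of all genes. At an unadjusted p under 0.05, 5 were higher and 0 lower, beside 15.1% and 15.1% of all genes, and the median was 0.41 beside 0. In CpG + IFNα against CpG only Cdkn1a was a DEG by edgeR and by DESeq2, and it was up-regulated, where 2.95% of all genes rose and 2.01% fell. At an unadjusted p under 0.05, 5 were higher and 0 lower there, beside 9.42% and 13.9% of all genes, and the median was 0.36 beside -0.04. In CpG + IFNα against IFNα, 6 were up-regulated and 1 was down-regulated, with 18.7% and 25.5% of all genes. In CpG against IFNα the counts were again 6 and 1, with 19.4% and 24.7% of all genes. These comparisons share samples, so that their counts are not independent of each other.

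**Figure D1:**
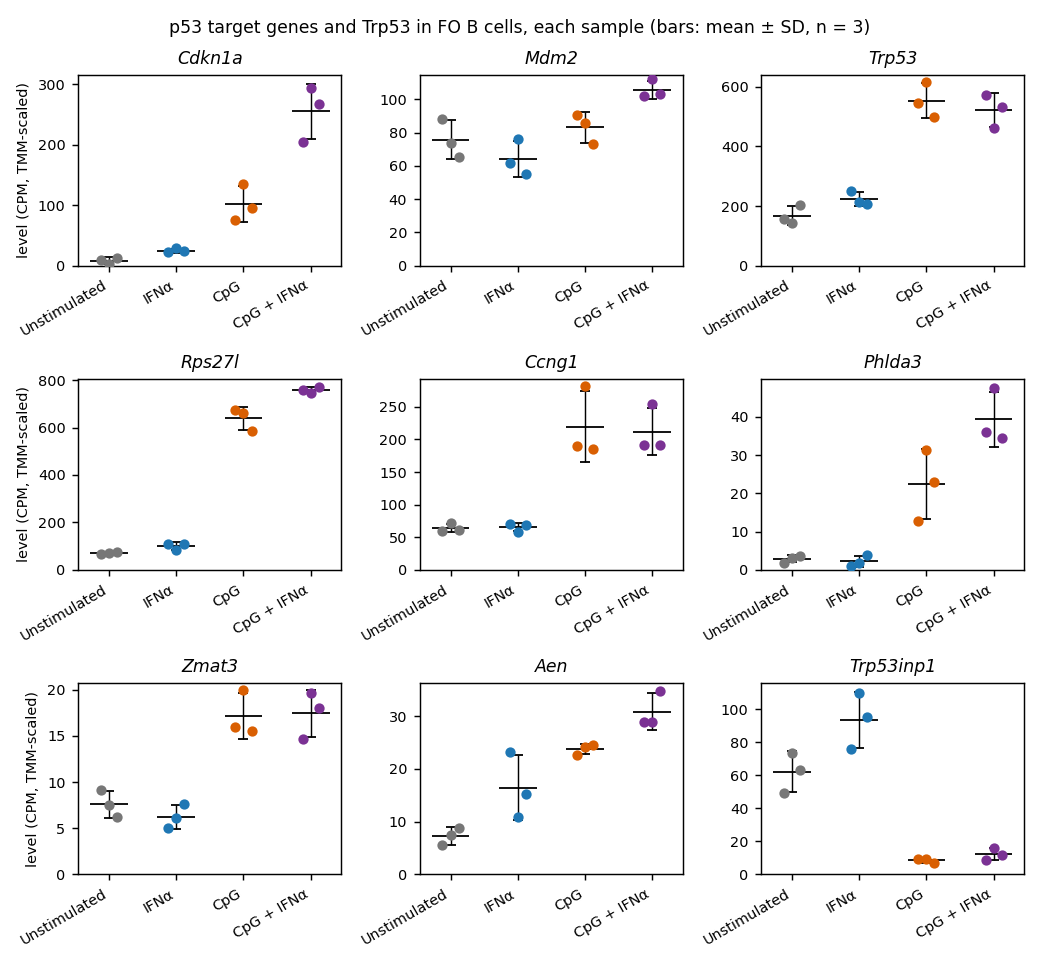
Level of each gene in each of the 12 samples (TMM-scaled CPM, linear axes from 0), with a horizontal bar at the mean and whiskers of 1 SD (n = 3 per group). The 4 groups do not overlap for Cdkn1a, whose mean goes from 8.46 CPM to 256 CPM, or for Rps27l, whereas Trp53inp1 is lower in both groups with CpG.

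Cdkn1a, on the forward strand of chromosome 17 (GRCm38, chr17:29090976-29100727), had few counts in unstimulated cells, namely 11, 2 and 15. IFNα samples had 22, 47 and 31 counts, CpG samples 123, 190 and 191, and CpG + IFNα samples 376, 851 and 522. Scaled for depth, the levels were 10, 2.14 and 13.2 CPM without stimulus, 22.2, 28.6 and 23.7 CPM with IFNα, 75.5, 135 and 95.4 CPM with CpG, and 205, 294 and 268 CPM with CpG + IFNα. No 2 groups overlapped, and every sample of a group lay above every sample of the group before it. Against unstimulated cells, the log2 fold change of Cdkn1a was 1.51 (SE 0.41, edgeR adjusted p = 0.00363) with IFNα. It was 3.51 (SE 0.37, edgeR adjusted p = 2.01e-12) with CpG, and 4.85 (SE 0.37, edgeR adjusted p = 2.28e-17) with CpG + IFNα. From summed counts alone, the last was a ratio of 29.6 with a 95% exact interval from 20.4 to 44.7, which covers counting error only.

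Cdkn1a was higher with IFNα than in unstimulated cells, and higher with CpG + IFNα than with CpG. The first comparison and the interaction below include the unstimulated cells, whose culture is not stated. With CpG present, the log2 fold change for IFNα was 1.34 (SE 0.16, edgeR adjusted p = 6.34e-08), with a 95% interval from 1.02 to 1.67. The difference between both effects of IFNα, which is the interaction, was -0.17 (SE 0.44, edgeR adjusted p = 0.874), with a 95% interval from -1.06 to 0.73. This interval allows the effect of IFNα with CpG to be smaller or larger than that without CpG by up to those amounts on the log2 scale. A test against a fold change of 2, in place of a test against no change, did not pass for either effect of IFNα (edgeR glmTreat adjusted p = 0.65 without CpG and 0.207 with CpG).

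The RefSeq promoters (GRCm38.p6), from 250 bases before to 50 bases after each start, were searched on both strands for the p53 consensus decamer, since p53 binds a pair of such decamers. The window at the Cdkn1a start chr17:29090979 held 2 decamers, at -73 and -51 from that start and 12 bases apart. The 60 bases at chr17:29090899-29090958, on the forward strand, are shown with both decamers in capitals:
Cdkn1a upstream: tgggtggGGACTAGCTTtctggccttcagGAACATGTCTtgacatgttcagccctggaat
A decamer occurred in 8.36% of 32851 promoters of the same length, and a pair at most 13 bases apart in 0.0731% of them (24 promoters). Only exact matches to the consensus were counted and set in capitals. The bases directly after the second decamer of Cdkn1a differ from the consensus only in their first letter, and are in lower case. A match is a description of letters, and binding was not measured here.

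Mdm2 (chr10:117688875-117710758), the p53 inhibitor and itself a p53 target, ranged from 54.9 to 112 CPM over all samples. Its levels were 88.3, 73.8 and 65.3 CPM in unstimulated cells, 61.5, 76 and 54.9 CPM with IFNα, 90.9, 85.5 and 72.9 CPM with CpG, and 102, 112 and 103 CPM with CpG + IFNα. The 3 samples with both stimuli were above all others, and the other 3 groups overlapped each other. Against unstimulated cells, Mdm2 had a log2 fold change of -0.22 (SE 0.16, edgeR adjusted p = 0.363) with IFNα and 0.13 (SE 0.15, edgeR adjusted p = 0.456) with CpG. With CpG + IFNα it rose by a log2 fold change of 0.48 (SE 0.14, edgeR adjusted p = 0.00318), which is below the fold change set for a DEG. CpG + IFNα exceeded CpG by 0.36 (SE 0.13, edgeR adjusted p = 0.0757), a difference that did not pass when any one of 5 of the 6 samples of these groups was left out (log2 fold change 0.26 to 0.38). Nor did it pass with DESeq2 (0.37, adjusted p = 0.174) or with counts thinned to the lowest total of a sample (0.2, edgeR adjusted p = 0.64). The effect of IFNα was larger with CpG than without, by 0.58 (SE 0.21, edgeR adjusted p = 0.0736). This too was lost in 6 of the 12 fits without 1 sample, with DESeq2 (adjusted p = 0.138) and with thinned counts (0.34, edgeR adjusted p = 0.586).

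Trp53 (chr11:69580359-69591873) encodes p53 itself. Its levels were 155, 143 and 204 CPM in unstimulated cells, 251, 215 and 208 CPM with IFNα, 546, 617 and 498 CPM with CpG, and 574, 462 and 532 CPM with CpG + IFNα. The groups with CpG overlapped each other and lay above both groups without CpG, and all IFNα samples were above the unstimulated samples by a small margin. Trp53 rose with CpG by a log2 fold change of 1.72 (SE 0.13, edgeR adjusted p = 3.06e-13) and with CpG + IFNα by 1.64 (SE 0.13, edgeR adjusted p = 7.52e-13). With IFNα alone it rose by 0.41 (SE 0.14, edgeR adjusted p = 0.0315), which did not pass without unstimulated replicate 1, unstimulated replicate 2 or IFNα replicate 1 (log2 fold change 0.32 to 0.36). With CpG present, IFNα gave -0.08 (SE 0.12, edgeR adjusted p = 0.745). The difference of the effects of IFNα was -0.5 (SE 0.18, edgeR adjusted p = 0.0835), and it did not pass with DESeq2 (adjusted p = 0.18), with either of 2 other scalings, or in 7 of the 12 fits without 1 sample.

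**Figure D2:**
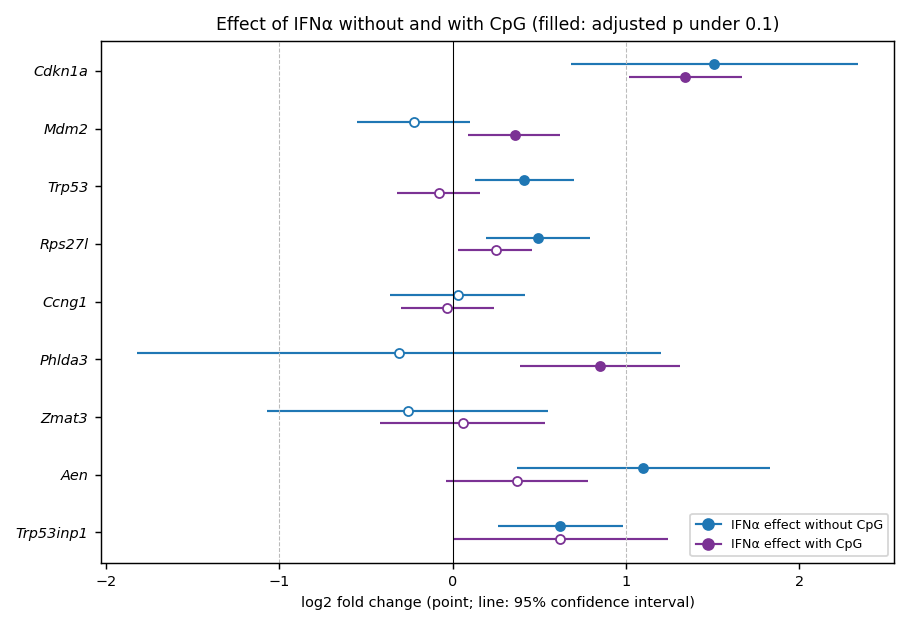
Log2 fold change for IFNα without CpG (blue, IFNα against unstimulated cells) and with CpG (purple, CpG + IFNα against CpG) for each gene, with lines for the 95% confidence interval and dashed lines at a 2-fold change. Filled points passed an adjusted p under 0.1. The intervals of Cdkn1a lie above 0 in both settings, at 1.51 and 1.34.

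Rps27l (chr9:66946086-66949516) encodes a relative of ribosomal protein S27 that is induced by p53 and interacts with MDM2, and it rose with each stimulus. Unstimulated samples had 65.5, 72.7 and 75 CPM, IFNα samples 110, 82.7 and 110 CPM, CpG samples 674, 661 and 584 CPM, and CpG + IFNα samples 759, 746 and 770 CPM. Each group lay above the one before it without overlap. The log2 fold change was 3.17 (SE 0.14, edgeR adjusted p = 6.16e-20) with CpG and 3.41 (SE 0.14, edgeR adjusted p = 5.25e-21) with CpG + IFNα. IFNα alone raised Rps27l by 0.49 (SE 0.15, edgeR adjusted p = 0.0176), and its addition to CpG gave 0.25 (SE 0.11, edgeR adjusted p = 0.137), although all samples with both stimuli were higher. This difference passed with only the groups compared in the fit (0.28, edgeR adjusted p = 0.0363) and without IFNα replicate 2 (0.25, edgeR adjusted p = 0.0768). Rps27l has paralogs, and reads shared with them could have been divided by the counting. The paralogs moved the other way with CpG: Rps27, the ribosomal protein gene, fell by 1.13 on the log2 scale (edgeR adjusted p = 1.33e-10), and Rps27rt fell by 1.02 (edgeR adjusted p = 3.71e-08).

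Ccng1 (chr11:40748552-40755311), which encodes cyclin G1, a partner of a phosphatase that acts on MDM2, responded to CpG and showed no detectable response to IFNα. Its levels were 60.1, 71.7 and 60.9 CPM without stimulus, 70.6, 58.4 and 68.7 CPM with IFNα, 190, 282 and 186 CPM with CpG, and 191, 254 and 191 CPM with CpG + IFNα. Samples fell in 2 separate ranges, without and with CpG, and within each range the groups overlapped. The log2 fold change was 1.77 (SE 0.17, edgeR adjusted p = 3.04e-11) with CpG and 1.74 (SE 0.17, edgeR adjusted p = 3e-11) with CpG + IFNα. For IFNα it was 0.03 without CpG (95% interval -0.36 to 0.42) and -0.03 with CpG (95% interval -0.3 to 0.24).

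Phlda3 (chr1:135766119-135769136), an inhibitor of the kinase AKT at the membrane, was hardly detected without CpG. Unstimulated samples had 2, 3 and 4 counts and IFNα samples 1, 3 and 5, against 21, 44 and 46 with CpG and 66, 138 and 67 with CpG + IFNα. Samples with both stimuli (36, 47.6 and 34.4 CPM) were all above those with CpG alone (12.9, 31.4 and 23 CPM). From summed counts, the ratio to unstimulated cells was 7.76 with CpG (95% exact interval 3.94 to 17.4) and 14.3 with CpG + IFNα (7.41 to 31.6), both for counting error only. IFNα added to CpG raised Phlda3 by a log2 fold change of 0.85 (SE 0.23, edgeR adjusted p = 0.00881), below the fold change of a DEG. This difference did not pass without CpG replicate 1 (0.58, edgeR adjusted p = 0.114) or without CpG + IFNα replicate 2 (0.67, edgeR adjusted p = 0.126), and without CpG replicate 2 it became a DEG (1.12, edgeR adjusted p = 0.00189). When counts were thinned to the lowest total of a sample, it was 0.95 and did not pass (edgeR adjusted p = 0.103).

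Aen (chr7:78895854-78911209) encodes a nuclease that takes part in apoptosis, and it was the other DEG of IFNα alone. Its levels were 5.46, 7.49 and 8.82 CPM in unstimulated cells, 23.2, 10.9 and 15.3 CPM with IFNα, 22.7, 24.2 and 24.5 CPM with CpG, and 28.9, 29 and 34.9 CPM with CpG + IFNα. The IFNα and CpG samples overlapped, and all other groups were apart. The log2 fold change was 1.1 (SE 0.36, edgeR adjusted p = 0.0202) with IFNα, 1.7 (SE 0.34, edgeR adjusted p = 1.03e-05) with CpG and 2.07 (SE 0.33, edgeR adjusted p = 1.08e-07) with CpG + IFNα. The change with IFNα did not pass without unstimulated replicate 1 (0.93, edgeR adjusted p = 0.103) or without IFNα replicate 1 (0.83, edgeR adjusted p = 0.126), and counts were low in both groups, at 6 to 10 and 18 to 23. IFNα added to CpG gave 0.37 (SE 0.2, edgeR adjusted p = 0.268).

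Zmat3 (chr3:32334792-32366014) encodes a zinc finger protein that binds RNA and regulates splicing. It had 7 to 10 counts per unstimulated sample and 5 to 10 with IFNα, against 26 to 31 with CpG and 27 to 57 with CpG + IFNα. Levels were 6.18 to 9.1 CPM without stimulus, 5.04 to 7.63 CPM with IFNα, 15.5 to 20 CPM with CpG and 14.7 to 19.7 CPM with both, so that the samples with CpG and those without did not overlap. The log2 fold change was 1.15 (SE 0.33, edgeR adjusted p = 0.0017) with CpG and 1.21 (SE 0.32, edgeR adjusted p = 0.000692) with CpG + IFNα. When counts were thinned to the lowest total of a sample, the latter was 0.55 and did not pass (edgeR adjusted p = 0.299). The effect of IFNα was -0.26 (95% interval -1.07 to 0.55) without CpG and 0.06 (-0.42 to 0.53) with it.

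Trp53inp1 (chr4:11156431-11174379), a nuclear and autophagy protein that promotes p53 activity, was the exception in direction. Its levels were 49.1, 73.8 and 63.5 CPM without stimulus, 75.7, 110 and 95.4 CPM with IFNα, 9.21, 9.27 and 6.49 CPM with CpG, and 8.73, 15.9 and 11.8 CPM with CpG + IFNα. All samples with CpG were below all samples without it, and all IFNα samples were above the unstimulated ones. The log2 fold change was -2.91 (SE 0.28, edgeR adjusted p = 4.26e-12) with CpG, which is 7.5-fold lower, and -2.29 (SE 0.23, edgeR adjusted p = 4.06e-11) with CpG + IFNα. IFNα alone raised it by 0.62 (SE 0.18, edgeR adjusted p = 0.00993). With CpG the same log2 fold change of 0.62 for IFNα had a larger error (SE 0.3, edgeR adjusted p = 0.201), and the samples overlapped.

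**Figure D3:**
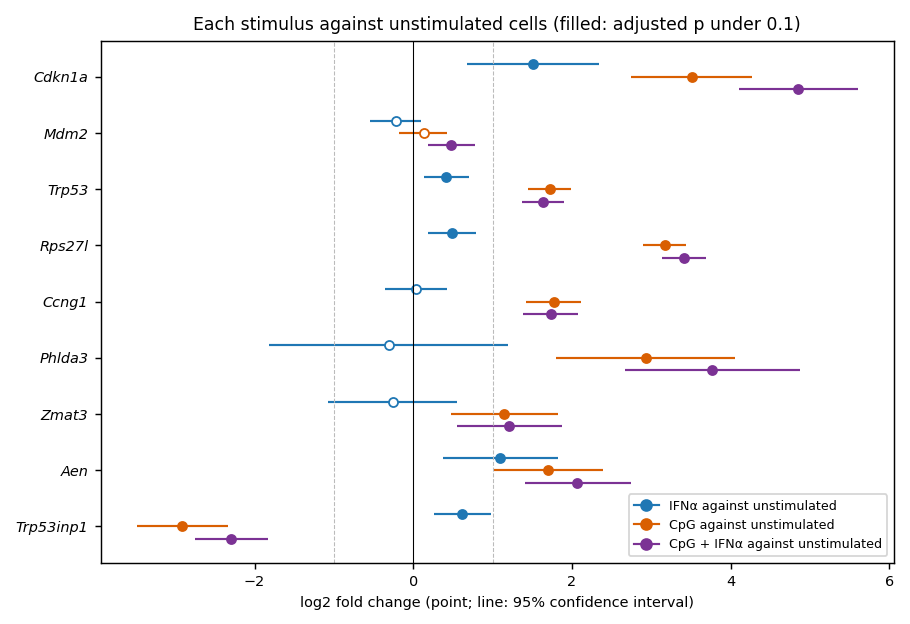
Log2 fold change of each gene against unstimulated cells with IFNα (blue), CpG (orange) and CpG + IFNα (purple), with lines for the 95% confidence interval, filled points for an adjusted p under 0.1 and dashed lines at a 2-fold change. All 3 comparisons share the unstimulated samples. Cdkn1a reaches 4.85 and Trp53inp1 -2.91, and the points of Mdm2 lie within 0.5 of 0.

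The effects of IFNα without and with CpG were compared for each gene by the interaction. By edgeR and by DESeq2, none of the 9 genes was a DEG there in either direction, with 3.09% of all genes tested higher and 3.17% lower, and only Mdm2 (higher) and Trp53 (lower) had an adjusted p under 0.1, which 5.84% of all genes passed as higher and 7.58% as lower. They were also the only ones with an unadjusted p under 0.05 (9.61% and 12.9% of all genes). The median interaction was -0.06, beside -0.05 over all genes tested. For the low-count genes the intervals were wide: that of Phlda3 ran from -0.42 to 2.73 and that of Aen from -1.56 to 0.1. With CpG added to IFNα-stimulated cells, Cdkn1a was higher by a log2 fold change of 3.34 (SE 0.23, edgeR adjusted p = 6.12e-16) and Mdm2 by 0.71 (SE 0.14, edgeR adjusted p = 4.18e-05).

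Decamers were also found near other genes. Promoters of 8 of the 10 genes were matched by symbol in the RefSeq table (11 promoters), and those of Trp53inp1 and Zmat3 were missing. A p53 decamer was present for 6 of these 8 genes, or in 7 of the 11 promoters, where 9.55% of 27025 genes had one. The genes were picked as known p53 targets, so this share is a description and no finding. For the other genes with a decamer, 30 bases around it are shown in the direction of transcription, with the decamer in capitals:
Mdm2 chr10:117710925-117710954, reverse strand: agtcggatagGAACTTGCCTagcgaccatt
Ccng1 chr11:40755452-40755481, reverse strand: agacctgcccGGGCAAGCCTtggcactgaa
Aen chr7:78895927-78895956, forward strand: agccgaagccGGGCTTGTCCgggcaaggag
Trp53 chr11:69580274-69580303, forward strand: acccacggaaGGACTTGCCCttacttgtta
Rps27l chr9:66946193-66946222, forward strand: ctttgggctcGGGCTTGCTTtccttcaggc
Rps27l chr9:66946296-66946325, forward strand: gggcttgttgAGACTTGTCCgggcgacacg
The sites of Mdm2, Ccng1 and Trp53 lie -186, -185 and -75 bases from an annotated start. Both sites of Rps27l, at -210 and -107 from the start of a RefSeq transcript, lie inside the annotated gene, as does that of Aen, at 10 and -121 from 2 RefSeq starts. The windows of Phlda3 and Eda2r held none. No window of these genes held the interferon-stimulated response element, searched as 2 copies of GAAA with 2 bases between them, which 3.44% of all promoters had, or the gamma-activated site TTCNNNGAA, which 8.3% had. The absence of these letters from so short a window says nothing on the binding of the factors.

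Among 20 regulators of p53, of which 16 were tested, 2 were up-regulated DEGs and 0 were down-regulated DEGs with IFNα by edgeR and by DESeq2, where 4.56% and 4.07% of all genes tested were, and the median log2 fold change was -0.05. At an unadjusted p under 0.05, 2 were higher and 1 lower, beside 15.1% in each direction over all genes. The DEGs were Daxx (3.11, SE 0.14, edgeR adjusted p = 2.67e-19) and Pml (1.43, SE 0.11, edgeR adjusted p = 2.74e-12), which encode proteins of PML nuclear bodies and are known as interferon-stimulated genes. In CpG against unstimulated cells 1 of the 16 regulators was up-regulated and 3 were down-regulated (median -0.34), no larger share than among all genes (20.1% and 25.5%). Chek1, the checkpoint kinase, rose by 2.46 (SE 0.51, edgeR adjusted p = 5.73e-06) from 10 to 90 summed counts, a ratio of 5.66 (95% exact interval 2.94 to 12.2 for counting error). In contrast, Pml fell by 3.07 and Rchy1, a ubiquitin ligase for p53, fell by 2.76 (edgeR adjusted p = 1.37e-18 and 1.17e-14). IFNα added to CpG raised 2 and lowered 0 regulators (median 0.14, 2.95% and 2.01% of all genes), again Pml (2.81, SE 0.15, edgeR adjusted p = 3.24e-17) and Daxx (1.82, SE 0.14, edgeR adjusted p = 7.33e-13).

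Mdm4, the relative of MDM2 that inhibits p53, had 119, 103 and 133 CPM in unstimulated cells and 85.3, 79.1 and 74.4 CPM with CpG, with no overlap. It fell by 0.58 on the log2 scale (SE 0.17, edgeR adjusted p = 0.00336), which is below the fold change of a DEG. Its log2 fold change was -0.27 with IFNα and 0.25 for IFNα added to CpG (edgeR adjusted p = 0.31 and 0.39). Ppm1d, a phosphatase that is a p53 target and dampens p53 signaling, had log2 fold changes of 0.33 with IFNα, -0.2 with CpG and -0.27 for IFNα added to CpG (edgeR adjusted p = 0.346, 0.443 and 0.477).

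Other p53 targets did not move in a single direction against unstimulated cells. Of 36 genes, 29 were tested, and 6 were up-regulated and 11 down-regulated DEGs with CpG, where 20.1% and 25.5% of all genes tested were. The share of up-regulated targets is thus near that of all genes, and the median log2 fold change was -0.48 beside -0.03. Bax, a pore-forming protein of apoptosis, rose by 2.36 (SE 0.13, edgeR adjusted p = 1.08e-16), from 71.7 to 94.4 CPM in unstimulated cells to 403 to 488 CPM with CpG. Psrc1, a microtubule regulator, rose from 6 to 119 summed counts, a ratio of 12.5 with a 95% exact interval of 5.57 to 34.7 for counting error (edgeR adjusted p = 6.89e-08). Trp53i11 fell by 4.58 (SE 0.22, edgeR adjusted p = 1.15e-20), and Sp100, a PML body protein, fell by 3.41 (SE 0.14, edgeR adjusted p = 7.62e-21). With CpG + IFNα the counts against unstimulated cells were 10 and 8, with a median of -0.19, beside 20.3% and 25.6% of all genes.

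IFNα alone raised 3 and lowered 3 of these 29 targets, beside 4.56% and 4.07% of all genes, with a median of 0.02. Sp100 rose by 1.65 (SE 0.1, edgeR adjusted p = 1.21e-14) and Tap1, the peptide transporter of antigen presentation, by 1.38 (SE 0.12, edgeR adjusted p = 2.68e-11), and both are known interferon-stimulated genes. Plk2, a polo-like kinase, had 247, 74.9 and 115 CPM in unstimulated cells and 4.04, 8.51 and 3.82 CPM with IFNα, a fall of 4.64 (SE 0.49, edgeR adjusted p = 2.74e-12). Pmaip1, which encodes the apoptosis protein NOXA, had 81, 32.1 and 34.4 CPM without stimulus and 14.1, 9.12 and 8.39 CPM with IFNα (log2 fold change -2.27, SE 0.33, edgeR adjusted p = 6.82e-07). For both genes, unstimulated replicate 1 was the highest sample, and the groups did not overlap. Without that sample, Plk2 fell by 4.02 with IFNα (edgeR adjusted p = 8.32e-14).

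Added to CpG, IFNα raised 4 and lowered 0 of the 29 targets, beside 2.95% and 2.01% of all genes, with a median of 0.35. By DESeq2 5 were up-regulated and 0 down-regulated DEGs. At an unadjusted p under 0.05, 12 were higher and 1 lower, beside 9.42% and 13.9% of all genes. By edgeR 11 had an adjusted p under 0.1, all of them higher. The 4 DEGs by edgeR were Sp100 (2.68, SE 0.13, edgeR adjusted p = 1.41e-17), Tap1 (2.05, SE 0.13, edgeR adjusted p = 1e-14) and Gtse1 (1.32, SE 0.26, edgeR adjusted p = 0.000326), with Tnfrsf10b as the fourth (1.5, SE 0.31, edgeR adjusted p = 0.000501). Gtse1, which moves p53 out of the nucleus, had 10.4, 10.7 and 12 CPM with CpG and 24.5, 30 and 28.3 CPM with CpG + IFNα. In unstimulated cells it had 2 counts in all 3 samples together. Tnfrsf10b, a death receptor, was outside the rule for naming genes and was added after its values were seen.

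**Figure D4:**
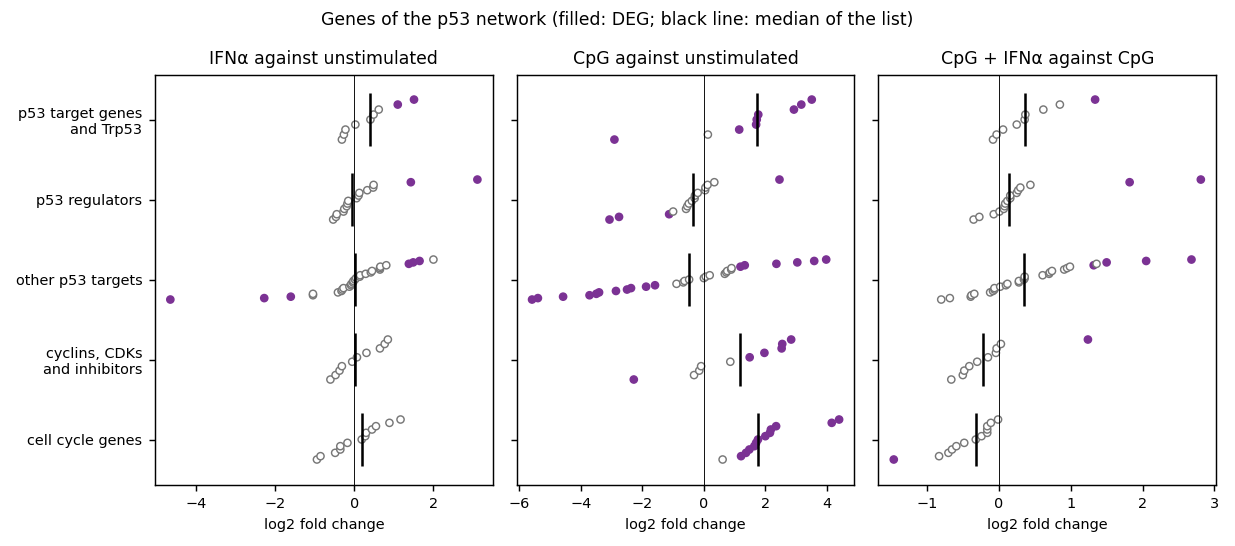
Log2 fold change of each tested gene in 5 lists, the p53 target genes with Trp53 (9 genes), regulators of p53 (16), other p53 targets (29), cyclins, kinases and inhibitors of the cell cycle (10) and cell cycle genes (13), in 3 comparisons with separate x axes. Filled points are DEGs and the black line is the median of a list. With CpG the medians run from -0.48 for the other targets to 1.76 for the cell cycle genes.

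The kinases that p21 inhibits and their cyclins were taken as a list of 15 genes, 10 of them tested, that also held related inhibitors. With IFNα alone, 0 of them were DEGs by edgeR and by DESeq2 (2 were higher and 3 lower at an unadjusted p under 0.05, which 15.1% of all genes passed in each direction), beside 4.56% and 4.07% of all genes, so that a count of 0 among 10 says little. CpG raised 5 and lowered 1 (median 1.18), beside 20.1% and 25.5% of all genes. Cdk6 rose with CpG from 99.2 to 113 CPM to 561 to 659 CPM (2.53, SE 0.13, edgeR adjusted p = 1.47e-17), and Cdk4 rose by 1.97 (SE 0.12, edgeR adjusted p = 6.58e-16). Cdkn1b, the gene of the related inhibitor p27, moved opposite to Cdkn1a with CpG. It had 444, 354 and 337 CPM in unstimulated cells and 66.3, 86.2 and 81.4 CPM with CpG, and fell by 2.28 (SE 0.13, edgeR adjusted p = 2.14e-16). With IFNα alone its log2 fold change was 0.31 (SE 0.12, edgeR adjusted p = 0.0532), the same direction as that of Cdkn1a, and for IFNα added to CpG it was -0.48 (SE 0.14, edgeR adjusted p = 0.0253). Ccnd2, which encodes cyclin D2, was the 1 DEG when IFNα was added to CpG (2.95% of all genes rose), from 575, 568 and 612 CPM to 1370, 1510 and 1250 CPM (1.24, SE 0.12, edgeR adjusted p = 8.38e-10).

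Genes of replication and mitosis, many of them known to be repressed by p53 and p21 through the DREAM complex, were a list of 20 genes with 13 tested. CpG raised 12 and lowered 0 of them, with a median of 1.76, beside 20.1% and 25.5% of all genes. With IFNα alone, 0 were DEGs by edgeR and by DESeq2, where the shares of all genes were 4.56% and 4.07%, so that a count of 0 among 13 says little. By edgeR 1 had an adjusted p under 0.1, below the fold change of a DEG. At an unadjusted p under 0.05, 2 were higher and 1 lower, again beside 15.1%. Tyms, thymidylate synthase, went from 11 to 381 summed counts, a ratio of 21.8 (95% exact interval 12 to 44 for counting error, edgeR adjusted p = 2.57e-15), and Mcm3, a subunit of the replicative helicase, rose by 2.35 (SE 0.18, edgeR adjusted p = 6.6e-14). With CpG + IFNα against unstimulated cells, 9 rose and 0 fell (median 1.48), beside 20.3% and 25.6%. IFNα added to CpG raised 0 and lowered 1, with a median of -0.32, beside 2.95% and 2.01%. At an unadjusted p under 0.05, 0 were higher and 5 lower, beside 9.42% and 13.9% of all genes. By edgeR 4 had an adjusted p under 0.1, all of them lower. The 1 DEG was Mki67, the gene of the proliferation marker Ki-67, at 6.75, 20 and 35.4 CPM with CpG and 5.45, 9.31 and 7.71 CPM with CpG + IFNα (-1.46, SE 0.38, edgeR adjusted p = 0.00595). These samples overlapped, and without CpG replicate 3 the change was -0.76 and did not pass (edgeR adjusted p = 0.317).

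The 5 genes whose log2 CPM over the 12 samples was most like that of Cdkn1a were named by Pearson's r, as a description, since the 12 points are 4 groups of 3 samples and share their stimuli and depth. They were Gm42047, a predicted gene (r = 0.975), Mtdh, which encodes metadherin (0.974), Slc7a5, an amino acid transporter (0.969), Sco1, a copper chaperone of cytochrome c oxidase (0.968), and Gtse1 (0.968). By Spearman's rho 2 of these 5 were again among the first 5, and with a prior count of 0.5 in place of 2 there were 3. Slc7a5 had mean levels of 13.9, 32.7, 148 and 186 CPM in unstimulated, IFNα, CpG and CpG + IFNα samples, and Sco1 14.7, 21.9, 36.5 and 64.9 CPM. Of the other 8 genes followed here, Trp53 was at rank 224 and Rps27l at rank 255 of 9430 genes by this measure, Mdm2 at rank 2843 and Trp53inp1 at rank 7396. After each group's mean was subtracted, r of Cdkn1a with the other 8 genes was between -0.17 (Rps27l) and 0.48 (Trp53).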

How the data were processed

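The authors deposited raw UMI counts per gene. Per the labels and the paper's methods, BRB-seq reads were processed with UMI-tools 1.1.2, Trim Galore 0.6.7, HISAT2 2.2.1 on GRCm38 and featureCounts 2.0.1. The annotation release and the strand setting of the counting are not given in the sources used here. All 22561 identifiers matched GENCODE M21, which gave positions.

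Counts were fitted with edgeR 4.0.16 in R 4.3.3 (TMM, filterByExpr by group, glmQLFit and glmQLFTest, 4 groups in 1 fit with 8 residual degrees of freedom, Benjamini-Hochberg adjustment). Standard errors are Wald errors of this fit. The replicates of a group differed by more than counting noise, and none was a copy of another. The alternatives were DESeq2 1.42.0, glmTreat, other scalings, filters and thresholds, a fit of the compared groups alone, thinned counts, a block for the replicate number, and leaving out each sample in turn.

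The genes and lists were chosen with earlier results of these data known. All 10 genes were to be named. From each further list, up to 3 DEGs per direction with the smallest p in CpG + IFNα against CpG were named, and up to 2 in IFNα and in CpG against unstimulated cells, with Mdm4, Ppm1d and the 5 genes most like Cdkn1a. Promoter sequences are from RefSeq (GRCm38.p6). AC167363.2, an unconfirmed transcript opposite to Cdkn1a, was not analysed here.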

Additional observations from a re-analysis of the deposited data

Results flagged for a closer look

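For some genes the difference between the effects of IFNα with and without CpG, the interaction, had an adjusted p under 0.1 in edgeR's quasi-likelihood test. This held for 5.84% of all genes in the higher and 7.58% in the lower direction. Among the 9 genes followed here these were Mdm2 (0.58 on the log2 scale, adjusted p = 0.0736) and Trp53 (-0.5, adjusted p = 0.0835), and neither is firm, since that of Mdm2 did not pass in 9 and that of Trp53 in 12 of 20 alternatives, DESeq2 among them (adjusted p = 0.138 and 0.18). Among the genes named from the other lists, the effect of IFNα was higher with CpG for Plk2 (6), Pmaip1 (2.63), Tnfrsf10b (2.54), Pml (1.38), Ccnd2 (1.28), Sp100 (1.03) and Tap1 (0.66). It was lower with CpG for Daxx (-1.28), Cdkn1b (-0.79) and Mcm3 (-0.77). The interaction of Mcm3 did not pass in 5 of 20 alternatives (without unstimulated replicate 2 or 3, IFNα replicate 3 or CpG replicate 3, and with glmTreat), and that of Tnfrsf10b in 2, thinned counts and glmTreat. Those of Pml, Ccnd2, Sp100, Tap1, Daxx and Cdkn1b did not pass with glmTreat against a 2-fold change (adjusted p from 0.333 for Pml to 1), and passed in the other 19 alternatives. Those of Plk2 and Pmaip1 passed in all 20, and that of Plk2 was 5.38 without unstimulated replicate 1. Plk2 was at 5.45 CPM or below on average with IFNα and with CpG, at 7.66 CPM with both and at 145 CPM in unstimulated cells. Pmaip1 had means of 49.2 CPM in unstimulated cells, 10.5 CPM with IFNα, 9.52 CPM with CpG and 12.1 CPM with both. With CpG present, the effect of IFNα did not pass for Plk2 (1.36, edgeR adjusted p = 0.157) or Pmaip1 (0.36, edgeR adjusted p = 0.582). Both interactions rest on the higher level in unstimulated cells, where an effect of culture cannot be told apart from that of a stimulus.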

How the results depend on the processing

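Each value was recomputed with up to 21 alternatives. Of 2064 values of single genes, 1962 kept their direction and their side of an adjusted p of 0.1, 78 no longer passed, 3 newly passed (Rps27l in CpG + IFNα against CpG in 2 fits, Mdm4 with IFNα in 1) and 21 changed sign, all 21 of them of changes that did not pass in the first place. The sources do not say whether a replicate number marks a mouse, and the check of the data did not settle it: same-numbered samples of different groups had correlations of deviations from -0.065 to 0.205, with 5 of 18 over 0.1, against 0 of 36 with different numbers. As a hint from the data, not the design, 10 of 12 samples correlated best with their own number, and 4 globin genes had the same order of replicates in all 16 combinations of gene and group. The fit without the block was kept. With the replicate number as a block, the up-regulated counts stayed at 2 for IFNα, 7 for CpG and 7 for CpG + IFNα against unstimulated cells, and at 1 for CpG + IFNα against CpG, and 0 of 99 values of single genes changed direction or side of an adjusted p of 0.1.

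When DEGs needed a 4-fold change (log2 fold change beyond 2), the up-regulated genes among the 9 were 0 for IFNα, 3 for CpG and 4 for CpG + IFNα against unstimulated cells (1.71%, 5.72% and 6.4% of all genes), 0 for CpG + IFNα against CpG (1.59%), 3 for CpG + IFNα against IFNα (5.68%) and 3 for CpG against IFNα (5.51%). With glmTreat against a 2-fold change there were 0 for IFNα and 0 for CpG + IFNα against CpG (2.21% and 1.88% of all genes). Without 1 sample, the count for IFNα was 1 to 2 (1 without unstimulated replicate 1 or IFNα replicate 1) and that for CpG + IFNα against CpG was 1 to 2 (2 without CpG replicate 2).

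None of the values that changed sign passed the test. Ccng1 in CpG + IFNα against CpG was 0.03 without a filter, 0.01 with the CPM filter, 0 with only the groups compared, 0.02 with thinned counts, and from -0.19 to 0.18 without 1 sample. Ccng1 with IFNα was -0.05 with library size only and -0.04 to 0.13 without 1 sample. With thinned counts, the interaction of Cdkn1a was 0.03, Zmat3 in CpG + IFNα against CpG -0.51 (0.06 before) and Ppm1d with CpG 0.02. Without 1 sample, the interaction of Cdkn1a was -0.56 to 0.23 (0.23 without unstimulated replicate 2), and in CpG + IFNα against CpG Zmat3 was -0.05 to 0.16 and Trp53 -0.16 to 0. The cause of these changes was not tested. Without CpG, Phlda3 had at most 5 counts in a sample, Zmat3 at most 10 and Aen at most 23.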
